A study of Mus musculus with 8 samples.

Results

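The mesenchymal transition genes are 10 genes chosen by name: the transcription factors Snai1, Snai2, Twist1, Twist2, Zeb1, Zeb2 and Prrx1, the cadherins Cdh2 and Cdh11, and the intermediate filament gene Vim. They were found on the arrays through the RefSeq accession of each probe, which gave 14 of the 55681 distinct probes and 10 of the 21368 genes named. Of these, 8 probes for 7 genes were bright enough to be tested, against 39818 probes for 16781 genes in all. Twist1, Twist2 and Cdh11 were not tested. RNA came from 8 mouse mammary tumours, each on 1 two-colour Agilent array. The 4 arrays labelled FGFR1 KO carry tumours of K19-tva/fgfr1loxP/loxP mice, in which both copies of Fgfr1 are flanked by loxP sites, and the 4 arrays labelled WT carry tumours of control K19-tva mice. Both groups carry the K19-tva transgene, named for the keratin 19 promoter and the avian retrovirus receptor tva. Both are labelled as FVB, and the loxP allele came from an ICR background and was backcrossed into FVB. The labels give no age, no time, no agent that started the tumours and no source of Cre, and whether each tumour is from an animal of its own is not stated. The p-values therefore measure the spread between these samples, which may be technical.

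The epithelial-mesenchymal transition is the change in which epithelial cells give up tight cell contacts and take on the shape, filaments and motility of mesenchymal cells. Factors of the Snail, Zeb and Twist families and Prrx1 drive it. Snail and Zeb factors bind short E-box motifs and repress the E-cadherin gene Cdh1 and other epithelial genes, while N-cadherin, cadherin 11 and vimentin are proteins of mesenchymal cells. In a mammary tumour the same genes are also expressed by fibroblasts and other stromal cells, and a piece of tumour holds both. In bulk tumour RNA, fewer cells of a type and less RNA per cell cannot be told apart.

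Promoters of the members are shown because several of these factors repress through the E-box CAGGTG, whose reverse complement is CACCTG, and because Snail factors are known to act on their own gene. Each window is the 250 bases before the start of a RefSeq transcript on GRCm38.p6, printed 5′ to 3′ on the gene's strand, with either E-box form in capitals. Windows were at hand for 6 of the 10 members, 9 windows in all, and only a window of Snai1 held the motif. The Snai1 window lies at chr2:167537945-167538194 on the + strand, and its CACCTG begins 126 bases before the start. The Vim window, at chr2:13574061-13574310 on the + strand, belongs to the member with the smallest p between the groups, and no such letters were found in it. Crb3 encodes an apical polarity protein, and its window lies at chr17:57061951-57062200 on the + strand. Rab25 encodes an epithelial trafficking GTPase and was chosen after its values were seen, because both motif forms lie close together in its window, at chr3:88548280-88548529 on the - strand.
Snai1: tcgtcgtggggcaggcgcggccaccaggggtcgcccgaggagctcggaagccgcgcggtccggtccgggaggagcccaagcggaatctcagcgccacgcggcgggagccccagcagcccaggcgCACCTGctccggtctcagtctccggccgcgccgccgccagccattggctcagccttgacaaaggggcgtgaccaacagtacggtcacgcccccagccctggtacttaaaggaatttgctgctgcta
Vim: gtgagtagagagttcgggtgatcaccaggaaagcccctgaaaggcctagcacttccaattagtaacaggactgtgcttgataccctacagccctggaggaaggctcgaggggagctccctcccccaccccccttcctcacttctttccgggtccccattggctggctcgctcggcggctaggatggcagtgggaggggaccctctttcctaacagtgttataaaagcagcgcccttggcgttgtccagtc
Crb3: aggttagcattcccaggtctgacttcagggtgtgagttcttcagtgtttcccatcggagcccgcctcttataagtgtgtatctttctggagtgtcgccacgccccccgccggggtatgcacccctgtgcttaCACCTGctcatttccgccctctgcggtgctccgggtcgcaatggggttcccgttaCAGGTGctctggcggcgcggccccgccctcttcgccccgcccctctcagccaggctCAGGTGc
Rab25: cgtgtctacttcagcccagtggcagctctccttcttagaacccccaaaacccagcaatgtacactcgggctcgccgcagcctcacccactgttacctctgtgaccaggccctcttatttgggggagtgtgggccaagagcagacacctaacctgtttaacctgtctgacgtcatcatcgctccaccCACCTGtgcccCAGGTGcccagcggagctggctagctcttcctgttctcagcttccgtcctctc

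Over all 32851 windows of this length, 17.2% held the motif on either strand. In the list of epithelial genes described further on, 15 of 25 windows held it, or 60%, from 13 of the 17 genes with a window. In the list of mesenchymal effectors, 0 of 18 windows held it. Some genes have overlapping windows, and a match of 6 letters is a description of sequence, not of binding. The epithelial list was chosen by name to include targets repressed in the transition. Its share may follow in part from that choice and is not a test.

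A value below is the log2 ratio of tumour signal (red) to a common human reference RNA (green), so that a difference of 1 is a 2-fold difference. For the tumour RNA the labelling protocol names the red dye, although the label field has cy3 alone. Green also varied less within groups, with a median SD of 0.16 over probes in FGFR1 KO and 0.19 in WT, against 0.27 and 0.37 in red. The reference is human RNA on mouse probes, so levels are read between arrays of 1 probe and never between probes. The share of spots with red well above background was 68.5% to 82.6% in FGFR1 KO and 43.4% to 68.6% in WT, and that of green was 88.8% to 91.0% and 68.7% to 81.4%. A probe could therefore pass the filter on dim signal without any WT array. The 8 arrays lay on 1 slide, the FGFR1 KO arrays in its row 1 and the WT arrays in its row 2, so genotype cannot be told apart from the row. WT 2 stood apart, with a mean correlation across probes of 0.38 to the other arrays, against 0.60 to 0.71 for the rest. On the WT arrays only, negative control spots were bright in Row 97 to 336 and Col 83 to 164, called the bright part here. In it, 17.7% to 46.9% of controls exceeded 50 units above background on the WT arrays and 0% on the FGFR1 KO arrays. Of the members, the spots of Vim, Snai1 and Twist2 lie in the bright part and all other spots lie outside it. The probe with the brightest red signal for Fgfr1, the targeted gene, differed by 0.00 ± 0.12 (SE) between the groups, and its other 2 probes by -0.10 and -0.49 (adjusted p = 1.0, 0.951 and 0.841 by limma). Where these probes lie relative to the deleted part was not determined, so they do not check the labels.

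**Figure D1:**
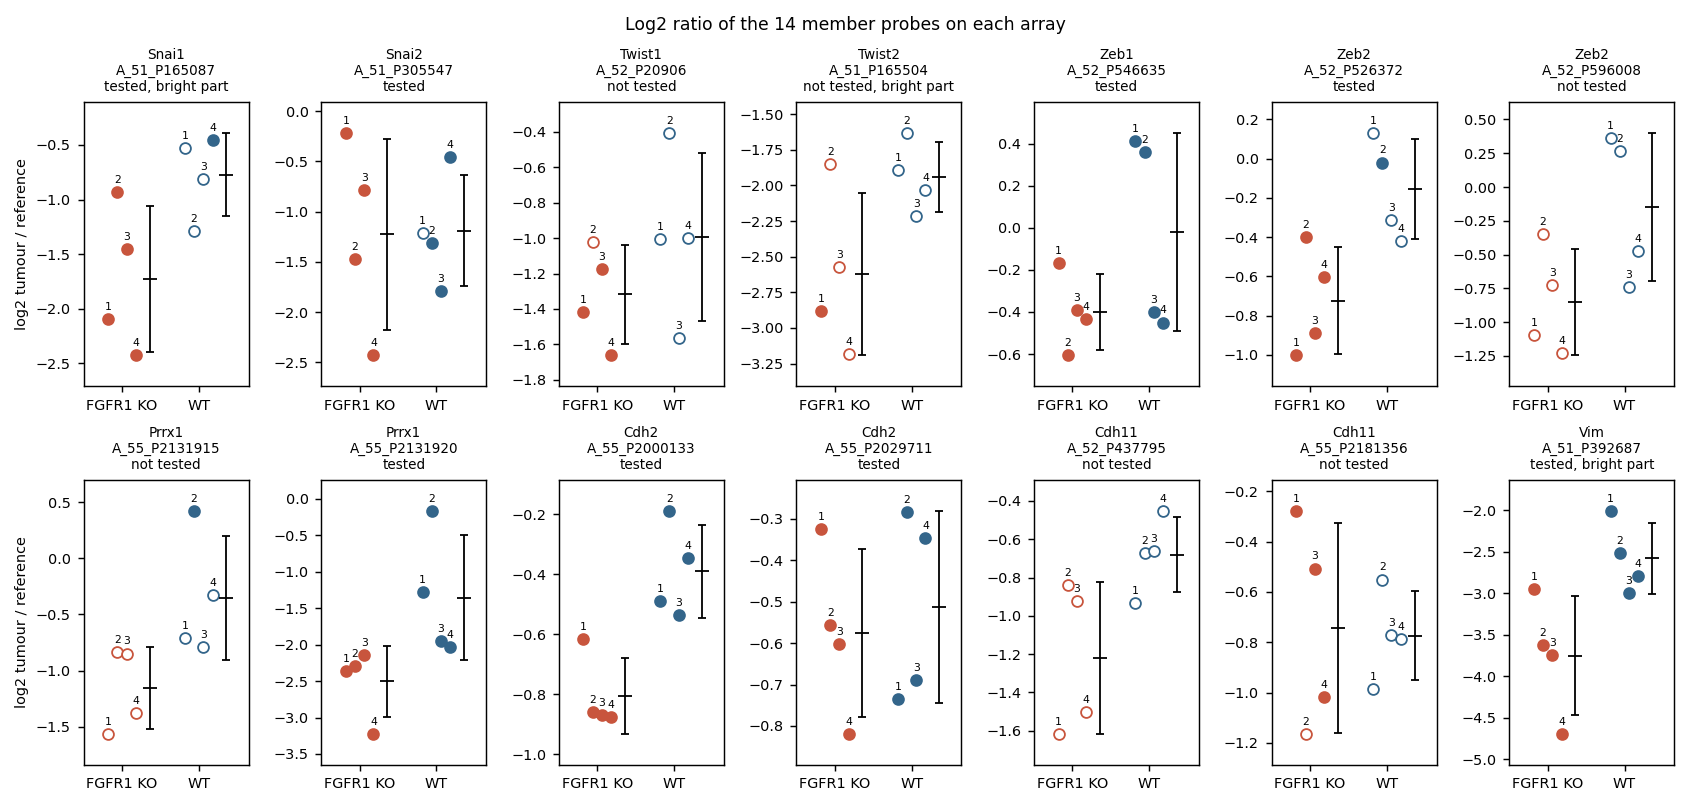
Log2 tumour over reference ratio (vertical axis, a scale of its own in each panel) of the 14 member probes on the 4 FGFR1 KO arrays (red) and the 4 WT arrays (blue), numbered by replicate. Filled points were well above background in red and open points were not, and bars are the mean and SD of each group. The groups are apart for both Prrx1 probes and for the Cdh2 probe A_55_P2000133 and overlap for the other 11.

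No member passed the test between FGFR1 KO and WT tumours. The lowest adjusted p was 0.451, for Vim, and 4 of 39818 probes passed in all, 0.01%. Those 4 were all lower in FGFR1 KO, all in the bright part, and none had a gene name. All 7 tested members had a difference below 0, against 50.4% of all genes tested. The median was -0.57 for the members and -0.002 for all genes. At an unadjusted p under 0.05, 4 of the 7 members were lower, namely Vim, Snai1, Zeb2 and Prrx1, against 4.78% of all genes. Prrx1 was the 1 member of 7 with every FGFR1 KO array below every WT array, against 2.5% of genes. Of all tested probes with a spot in the bright part, 11.02% were lower at an unadjusted p under 0.05, against 1.87% of those with a spot outside it. Vim and Snai1 lie inside it, and Zeb2 and Prrx1 outside. Counted over the 8 probes, 5 were lower at an unadjusted p under 0.05, against 1931 of all 39818 probes. The member count was 1 when WT 1 and WT 2 were left out and 2 with the Agilent log ratio. It was 3 with red processed signal alone, with WT 1 and WT 3 left out, with FGFR1 KO 4 left out or with WT 1 left out. The counts over all probes were 1973 of 39720 without WT 1 and WT 2, 851 with the Agilent log ratio and 775 with red processed signal alone. They were 2227 of 39768 without WT 1 and WT 3, 1399 without FGFR1 KO 4 and 1781 without WT 1. The median of the members was -0.36 when WT 1 and WT 2 were left out.

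**Figure D2:**
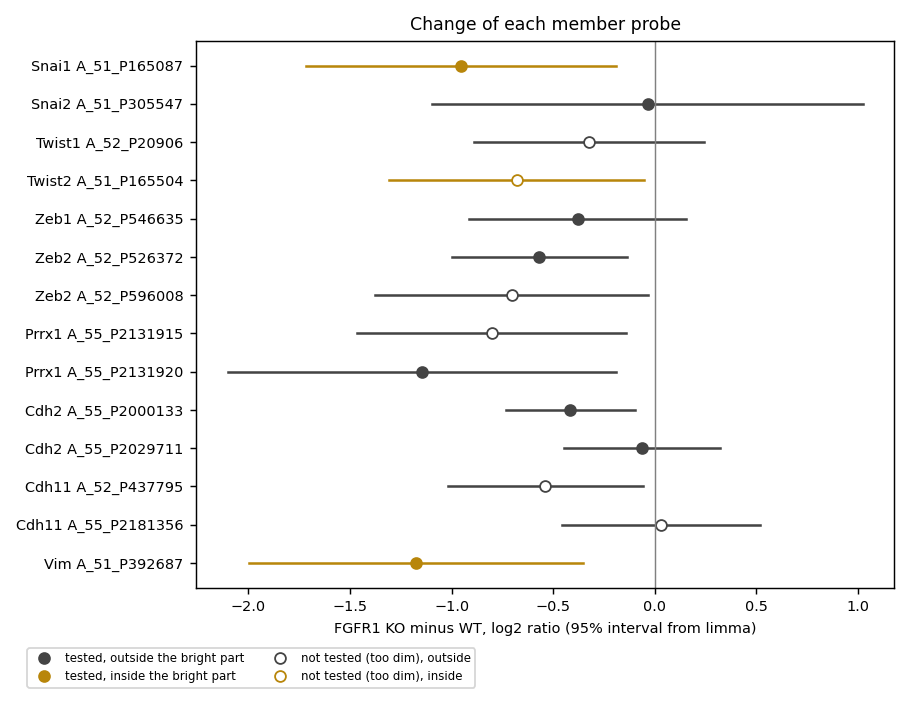
Difference in log2 ratio, FGFR1 KO minus WT (horizontal axis), with its 95% interval from limma, for the 14 member probes. Filled points were tested, open points were too dim, and yellow marks the bright part. Of the 14 probes, 13 lie below 0, where 52.6% of all genes did with no filter on dim probes. The intervals of Snai2, Twist1, Zeb1, the Cdh2 probe A_55_P2029711 and the Cdh11 probe A_55_P2181356 cross 0.

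Neither Snail factor passed the test. Snai1 had mostly lower values in FGFR1 KO, while the values of Snai2 overlapped fully. Snai1 encodes Snail, a zinc finger repressor of Cdh1. Its log2 ratio was -2.09, -0.93, -1.45 and -2.43 on FGFR1 KO arrays 1 to 4 and -0.53, -1.29, -0.81 and -0.46 on WT arrays 1 to 4. FGFR1 KO 2 lay above WT 2, so the groups overlap. The difference was -0.95 ± 0.34 (SE, n = 4 and 4), with an adjusted p of 0.501 and an exact two-sided permutation p of 0.0571. The red spot was well above background on 4 FGFR1 KO arrays and on only 1 WT array, although its ratio was higher on the WT arrays. In units above local background it read 67.5, 57.5, 55 and 49 on the FGFR1 KO arrays, where no control within 20 rows and columns exceeded 12. On the WT arrays it read 218.5, 59.5, 204.5 and 208, where the medians of the same 9 controls were 51, 10, 68 and 241. On WT 4 the control spots near Snai1 were thus as bright as the Snai1 spot, and on WT 2, the array with the lowest control median, Snai1 read within the range of the FGFR1 KO arrays. The normalized red signal alone differed by -0.87, and Feature Extraction's processed red signal, scaled without the reference, by -0.61.

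Snai2 encodes Slug, the Snail factor of the mammary basal layer. Its log2 ratio was -0.22, -1.47, -0.79 and -2.43 on the FGFR1 KO arrays and -1.21, -1.31, -1.79 and -0.45 on the WT arrays. The FGFR1 KO arrays span more than the whole WT range. The difference was -0.04 ± 0.47 (SE), with a 95% interval of -1.09 to 1.02 and an adjusted p of 0.986. It was 0.37 without FGFR1 KO 4 and 0.21 without WT 4.

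The Twist factors, basic helix-loop-helix proteins that induce the transition in mammary tumour cells, were at the limit of detection. Twist1 was well above background on 3 FGFR1 KO arrays and 0 WT arrays, and Twist2 on 1 and 0. The raw signal of Twist1 was nevertheless not lower on the WT arrays. In units above local background it read 47, 10.5, 37 and 41 on the FGFR1 KO arrays and 70, 50.5, 39 and 51.5 on the WT arrays. The log2 ratio of Twist1 was -1.41, -1.02, -1.17 and -1.66 on the FGFR1 KO arrays and -1.01, -0.41, -1.57 and -0.997 on the WT arrays, and the groups overlap. That of Twist2 was -2.88, -1.85, -2.58 and -3.18 against -1.89, -1.63, -2.21 and -2.03, and here only FGFR1 KO 2 reached the WT values. The Twist2 spot lies in the bright part and read 22 to 38 units above background on the FGFR1 KO arrays and 54 to 97 on the WT arrays, where the brightest of 9 near controls reached 230. A bound on the fold came out under 1 for both genes, so no fold is given.

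**Figure D3:**
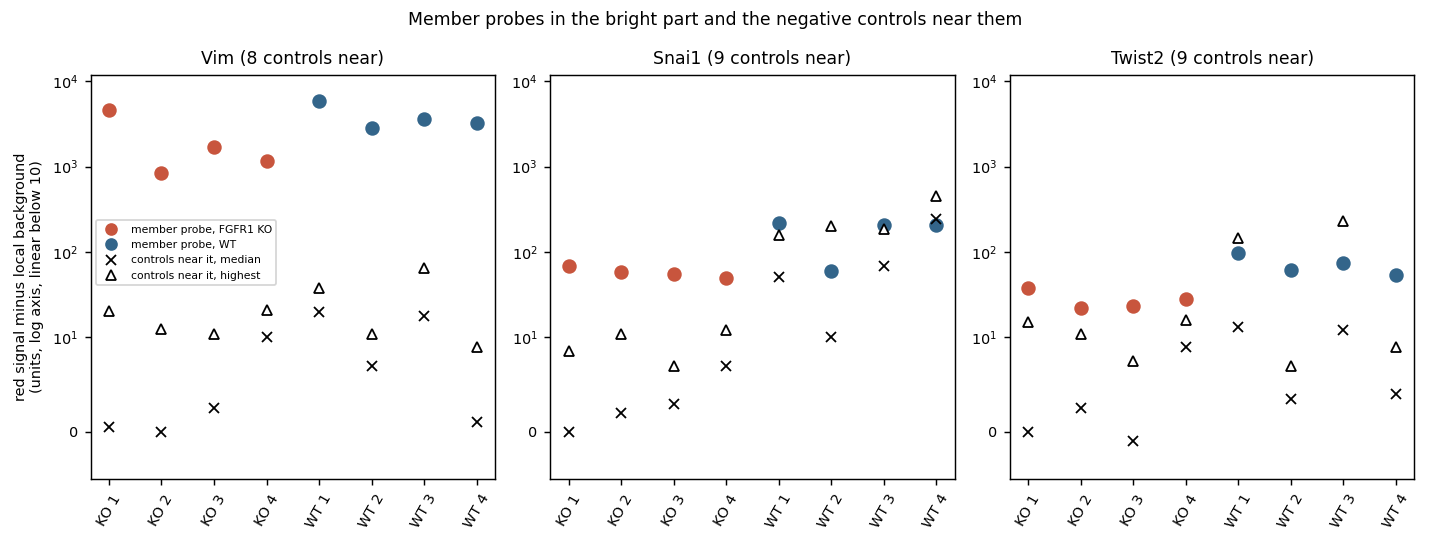
Red signal minus local background (vertical axis, in units, a log axis that is linear below 10) of the 3 member spots in the bright part on each array, with the median (crosses) and highest value (triangles) of the negative controls within 20 rows and columns. Vim lies far above its controls on every array, while Snai1 on WT 4 lies below the control median of 241 and Twist2 on WT 1 and WT 3 lies below the highest control.

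The Zeb factors, large zinc finger and homeodomain repressors of epithelial genes, did not pass the test, with mostly lower values in FGFR1 KO for Zeb2 and a wider overlap for Zeb1. The log2 ratio of Zeb2 was -1.002, -0.40, -0.89 and -0.61 on the FGFR1 KO arrays and 0.13, -0.02, -0.31 and -0.42 on the WT arrays. Only FGFR1 KO 2 and WT 4 cross. The difference was -0.57 ± 0.19 (SE), with an adjusted p of 0.480 and an exact permutation p of 0.0571. The spot was well above background on 4 FGFR1 KO arrays and 1 WT array. It lies outside the bright part, and the controls near it did not exceed 13 units. The spot itself read 35 to 107.5 units on the FGFR1 KO arrays and 63 to 221 on the WT arrays. A dimmer Zeb2 probe, above background on no array, was not tested. The difference was -0.36 without WT 1 and WT 2. Zeb1 was above background on all 8 arrays. Its log2 ratio was -0.17, -0.61, -0.39 and -0.43 on the FGFR1 KO arrays and 0.41, 0.36, -0.40 and -0.45 on the WT arrays. WT 1 and WT 2 were high, and WT 3 and WT 4 lay among the FGFR1 KO arrays. The difference was -0.38 ± 0.24 (SE), with an adjusted p of 0.681 and an exact permutation p of 0.286. It was -0.24 without WT 1, -0.25 without WT 2 and 0.03 without both.

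Prrx1, a paired-type homeobox factor of mesenchyme, did not pass the test, although its groups did not overlap. Its probe for NM_175686 was above background on all 8 arrays, and its log2 ratio was -2.36, -2.30, -2.14 and -3.22 on the FGFR1 KO arrays and -1.28, -0.17, -1.95 and -2.03 on the WT arrays. WT 3 and WT 4 lay just above the FGFR1 KO arrays and WT 2 far above them. The difference was -1.15 ± 0.42 (SE), with an adjusted p of 0.526 and an exact permutation p of 0.0286, the smallest that 4 against 4 arrays can give. The green signal differed by -0.06 between the groups and the red signal by -1.21. The difference was -0.75 without WT 2 and -0.51 without WT 1 and WT 2. The probe for the transcript NM_001025570 was too dim to be tested. It was above background on 0 FGFR1 KO arrays and 1 WT array, WT 2, and its groups did not overlap either. Red was at least 1.52-fold higher in WT. Such a bound sets the mean of the group with a measured spot against, on each array of the other group, the higher of the dimmest signal above background and the spot's own signal. Here the spot's own signal was the higher on every FGFR1 KO array, so the bound equals the ratio of the measured means, and 3 of the 4 WT values behind it were not above background. It is open to dye bias, since no dyes were swapped.

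Of the mesenchymal cadherins, neither showed a difference that all its probes shared. Cdh2 encodes N-cadherin, the cell contact protein that replaces E-cadherin in the transition. It has 2 probes, both above background on all 8 arrays and outside the bright part. The probe with the brighter red signal, A_55_P2029711, differed by -0.06 ± 0.17 (SE, adjusted p = 0.927, exact permutation p = 0.771), with -0.33, -0.56, -0.60 and -0.82 on the FGFR1 KO arrays and -0.74, -0.28, -0.69 and -0.35 on the WT arrays. These overlap fully. The other probe, A_55_P2000133, read -0.61, -0.86, -0.87 and -0.87 on the FGFR1 KO arrays and -0.49, -0.19, -0.53 and -0.34 on the WT arrays. All 4 FGFR1 KO arrays lay below all 4 WT arrays, with a difference of -0.41 ± 0.14 (SE, adjusted p = 0.481, exact permutation p = 0.0286). Both probes carry the same RefSeq accession, and which parts of the transcript they read was not determined. Cdh11, a cadherin of fibroblasts and bone-forming cells, was not tested. Its probe A_52_P437795 was above background on no array. Its probe A_55_P2181356 was above background on 3 FGFR1 KO arrays and 0 WT arrays, with a log2 ratio of -0.28, -1.16, -0.51 and -1.02 on the FGFR1 KO arrays and -0.98, -0.55, -0.77 and -0.79 on the WT arrays. The groups overlap fully, with a difference in log2 ratio of 0.03. The red signal alone gave a bound of at least 1.25-fold higher in FGFR1 KO, while the reference signal of the same spot was also higher there, by 0.44 on the log2 scale.

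Vim encodes vimentin, the main intermediate filament protein of mesenchymal cells, and had the largest fitted difference of the 7 tested members, close to that of Prrx1. Its log2 ratio was -2.94, -3.63, -3.75 and -4.69 on the FGFR1 KO arrays and -2.01, -2.51, -2.99 and -2.79 on the WT arrays. Only FGFR1 KO 1 and WT 3 cross. The difference was -1.18 ± 0.36 (SE), with a 95% interval of -2.00 to -0.35, an adjusted p of 0.451 and an exact permutation p of 0.0571. The spot lies in the bright part. It read 840 to 4557.5 units above background on the FGFR1 KO arrays and 2868 to 5870.5 on the WT arrays, where no control near it exceeded 64.5. Leaving out WT 1 and WT 3, the arrays with the most bright controls, gave -1.10. Whether the bright part added to the Vim difference was not tested.

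**Figure D4:**
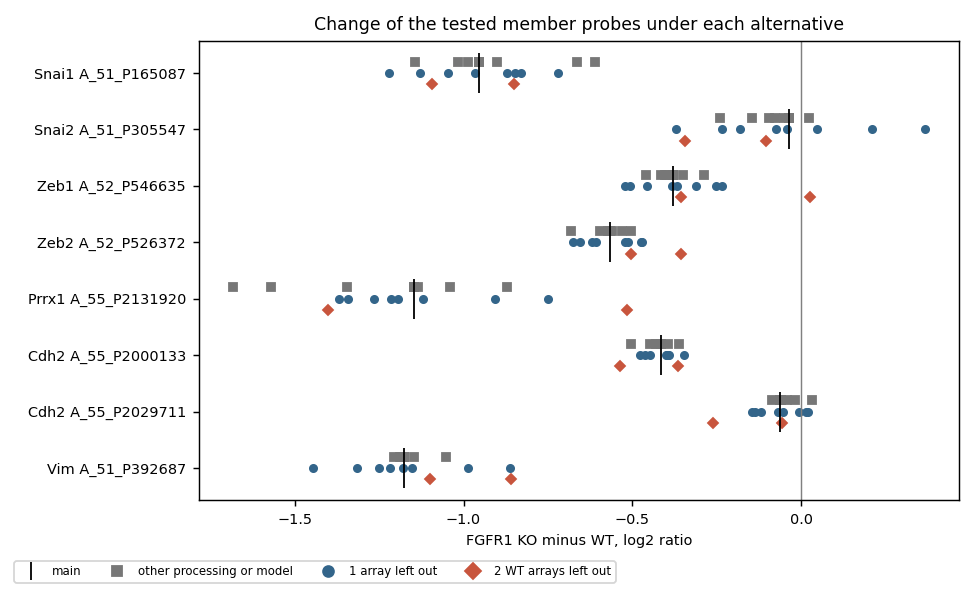
Difference in log2 ratio, FGFR1 KO minus WT (horizontal axis), of the 8 tested member probes as reported (black bar), under other processing or models (grey), with 1 array left out (blue) and with 2 WT arrays left out (red). Snai1, Zeb2, Prrx1, Vim and the Cdh2 probe A_55_P2000133 stay below 0 throughout, while Snai2, Zeb1 and the Cdh2 probe A_55_P2029711 reach both sides of 0.

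The genes whose log2 ratio followed a member most closely over the 8 arrays were ranked by Pearson's r among 15324 genes with a value on every array, as a description. For Vim they were Nid1, Itga5 and Pltp, with r from 0.97 to 0.98. Nid1 encodes the basement membrane protein nidogen 1 and Itga5 a chain of the fibronectin receptor. For Prrx1 they were Suox, Mxra8 and Prkaa1 (r of 0.98 to 0.99), and for Zeb1 they were Map4k2, Stard8 and Gimap6 (0.97). For Zeb2 they were Heatr1, Psmd14 and Mthfd1l (0.96 to 0.99), and for Snai1 they were Atp2b1, Eddm3b and Tex9 (0.94 to 0.97). For Snai2 they were Ift57, Adcy6 and Myl9 (0.96 to 0.98), and for Cdh2 they were Amd2, Acbd4 and Fbxo6 (0.96 to 0.99). No gene stood in the top 3 of more than 1 member.

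The other genes of the transition were read in 7 lists, and no gene of any list passed limma's test. At an unadjusted p under 0.05, 1 gene of the relatives, 1 of the stability list and 2 of the inducers were lower, 0 of the filament list differed, and 1 cadherin was lower and 1 higher. Of all genes tested, 4.78% were lower and 3.1% higher at that p, and 50.4% were below 0. Relatives and co-factors of the transition factors had 19 of 24 genes tested, 9 of them below 0, with a median of 0.05. Tcf4, an E protein that pairs with Twist factors, differed by -0.92 ± 0.34 (SE, adjusted p = 0.523). Id1, which keeps E proteins off DNA, differed by -0.84 (-0.44 without WT 2) and Tcf12, another E protein, by 0.40. In the list of genes that control Snail and Twist protein stability all 12 were tested, 8 were below 0 and the median was -0.02. The deubiquitinase subunit gene Psmd14 differed by -0.41 and the kinase gene Mapk14 by -0.42 (-0.15 without WT 2). The F-box gene Fbxo11 differed by -0.21 (-0.04 without FGFR1 KO 4 and -0.42 without FGFR1 KO 2). Fbxo11 had no value on FGFR1 KO 1, so its difference rests on fewer arrays, and those with an array left out on fewer still. The spots of Psmd14 and Fbxo11 lie in the bright part. Inducers of the transition had 21 of 23 genes tested, 13 below 0, with a median of -0.04. The ligand gene Bmp2 read 0.67, 0.30, 0.25 and 0.44 on the FGFR1 KO arrays and 1.09, 1.04, 0.89 and 1.09 on the WT arrays. These groups were apart, by -0.62 ± 0.14 (SE, adjusted p = 0.298, exact permutation p = 0.0286). The size depended on the processing. It was -0.30 with median centring, -0.37 with quantile normalization and -1.11 with red processed signal alone. The receptor kinase gene Axl differed by -0.67 and its ligand gene Gas6 by -0.59 (-0.33 without FGFR1 KO 4), the latter in the bright part. Over the 21 alternatives the medians ran from -0.23 to 0.28 for the relatives, from -0.15 to 0.12 for the stability list and from -0.19 to 0.03 for the inducers. Genes of the TGF-beta branch such as Tgfb1 and Smad3, chosen after their values were seen, differed by -0.22 and 0.19.

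Mesenchymal effectors, the matrix, protease and contractile genes of the transition, had 20 of 22 genes tested and 15 below 0, with a median of -0.67. Of these, 7 were lower at an unadjusted p under 0.05 and 0 higher, where the shares of all genes were 4.78% and 3.1%. Itga5 read -1.74, -1.92, -2.18 and -2.69 on the FGFR1 KO arrays and -0.91, -1.22, -1.46 and -1.35 on the WT arrays, with no overlap, but its spot lies in the bright part. The fibronectin gene Fn1, outside it, differed by -1.45 ± 0.42 (SE, adjusted p = 0.434), with -4.45, -3.28, -3.42 and -4.36 against -1.52, -3.35, -2.34 and -2.51. WT 2 was the only WT array within the FGFR1 KO range. S100a4, a calcium-binding protein gene of fibroblasts and motile cells, differed by -0.90 ± 0.30 (SE, adjusted p = 0.481), with no overlap. Of the 20 genes, 10 have a spot in the bright part. The median of the list became -0.20 when WT 3 was left out, -0.28 when FGFR1 KO 4 was, and -0.21 when WT 1 and WT 3 were. All 10 other intermediate filament and Vim partner genes were tested, with 7 below 0 and a median of -0.23, which was -0.04 when WT 2 was left out, -0.12 when FGFR1 KO 4 was, and 0.04 when WT 1 and WT 2 were. The lamin gene Lmna differed by -0.45 (-0.27 without FGFR1 KO 3) and the glial filament gene Gfap by 0.51 (0.31 without WT 1). The muscle filament gene Des stood at 5.34 on WT 2 and at -1.31 to 0.24 on the other 7 arrays, and its difference of -1.77 was -0.27 without WT 2.

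On the epithelial side, Cdh1, which encodes E-cadherin, had a log2 ratio of 1.97, 1.52, 1.47 and 1.78 on the FGFR1 KO arrays and 1.00, -0.08, 1.52 and 2.01 on the WT arrays. WT 3 and WT 4 were as high as the FGFR1 KO arrays. The difference was 0.57 ± 0.40 (SE, adjusted p = 0.707). It was 0.18 without WT 2, 0.87 without WT 4 and -0.08 without WT 1 and WT 2. The list of epithelial guardians and targets repressed in the transition, which includes Cdh1, had 25 of 26 genes tested and 24 above 0, with a median of 1.01. Of these, 7 were higher at an unadjusted p under 0.05, against 3.1% of all genes tested, and 12 of the 25 have a spot in the bright part. The transcription factor gene Grhl1 differed by 2.02 ± 0.70 (SE, adjusted p = 0.486), with 3.36, 3.27, 4.16 and 4.48 on the FGFR1 KO arrays and 1.55, -0.30, 2.72 and 3.21 on the WT arrays. All FGFR1 KO arrays lay above the WT arrays, and WT 2 was the lowest, without which the difference was 1.32. Crb3, whose window is printed above, differed by 1.14 and Rab25 by 1.31, and the junction gene Tjp3, in the bright part, by 0.85. The median of the list was 0.41 without WT 2 and 0.08 without WT 1 and WT 2. Other cadherins and catenins, among them Cdh1, had 14 of 15 genes tested, 4 below 0 and a median of 0.18, with the muscle cadherin gene Cdh15 at -0.72, the kidney cadherin gene Cdh6 at 0.45 and the desmosomal gene Dsg2 at 0.66 (0.35 without WT 2). Cdh15 stood highest on WT 2, at 0.76. The median of this list was 0.11 without WT 1, 0.09 without WT 2, 0.34 without WT 4 and -0.06 without WT 1 and WT 2.

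**Figure D5:**
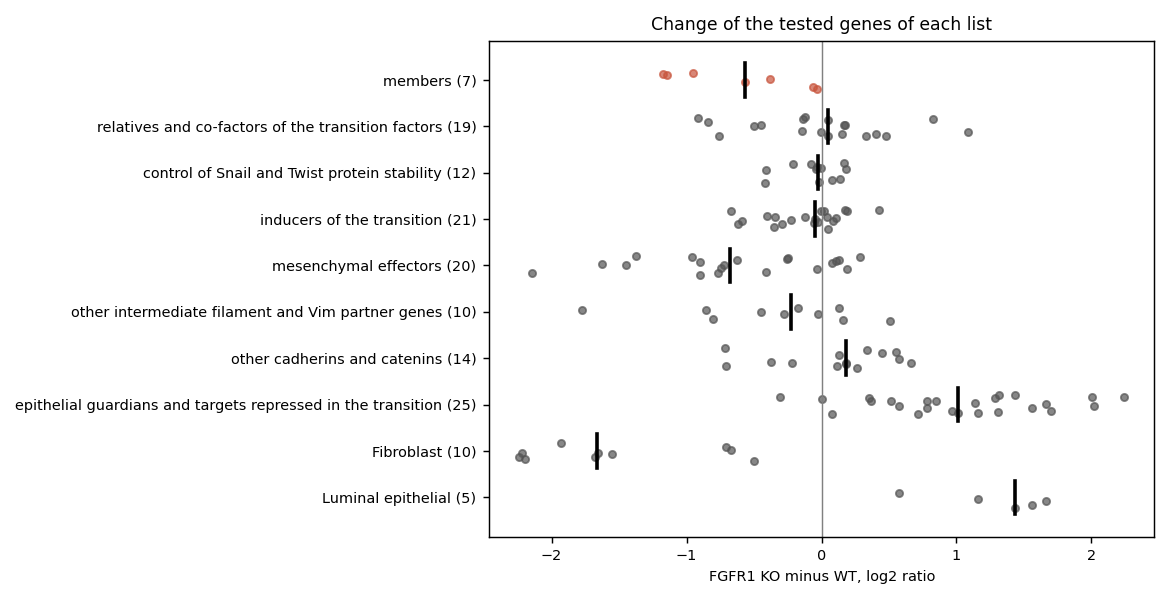
Difference in log2 ratio, FGFR1 KO minus WT (horizontal axis), of each tested gene of the members, the 7 lists and the fibroblast and luminal markers (number tested in brackets), with the median as a black bar. The medians of the members and of the mesenchymal effectors lie at -0.57 and -0.67, that of the fibroblast markers at -1.67 and that of the epithelial genes at 1.01.

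No marker of the other cell types of a tumour piece passed the test. The lowest adjusted p by limma was 0.204, for the mast cell marker Mcpt4, whose spot lies in the bright part. Among fibroblast markers the lowest was 0.217, for Lum, which encodes the matrix proteoglycan lumican. All 10 fibroblast markers, collagen, matrix and receptor genes, were below 0, against 50.4% of all genes tested. All 10 were also lower at an unadjusted p under 0.05, against 4.78% of all genes. The median of these markers was -1.67. Their mean log2 ratio was -1.71 to -0.22 on the FGFR1 KO arrays and 0.18 to 1.09 on the WT arrays, with no overlap, and 2 of the 10 have some of their spots in the bright part. The mean over the 7 members was -2.09 to -1.30 on the FGFR1 KO arrays and -1.28 to -0.75 on the WT arrays. FGFR1 KO 4 was the lowest array in both. Of the macrophage markers 5 of 6 were below 0, of the endothelial markers 5 of 6, and of the adipocyte markers 6 of 6, where the share of all genes was 50.4%. The mean of 5 luminal epithelial markers was 1.89 to 3.01 on the FGFR1 KO arrays and -2.21 to 3.00 on the WT arrays. WT 2 was the only array of the labelled breast tumours on which it was below 0. Adipocyte and skeletal muscle markers had median differences of -1.82 and -2.61, both below the fibroblast median. They were highest on WT 2, with means of 4.44 and 6.85. WT 1 came next, with 3.62 and 1.72, and had the highest B cell mean, 2.43. On the other 6 arrays these means were at most 0.86 for adipocytes and 0.44 for skeletal muscle. The part of these cells in the members' differences was not tested. Per list, 3 to 5 pericyte, T cell, B cell, neutrophil, mast cell, basal and nerve markers were tested. Their medians ran from -0.95 for B cells to 0.06 for nerve and Schwann cells. Of the 4 mast cell markers tested, 3 were below 0, with a median of -0.65. For 2 of the 4, every FGFR1 KO array lay below every WT array, against 2.5% of all genes.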

How the data were processed

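Tumour RNA was labelled with a red and a universal human reference RNA with a green Alexa dye, per the labels' protocols. Per the file headers, arrays were read with Feature Extraction 11.0.1.1 on a design made for mm9, the median signals and backgrounds are intensities with no correction, and the ratio column is a log10 of processed red over processed green. Column by column, the deposited series matrix correlated at 0.985 to 0.991 with the log2 ratios computed here, which settles its direction. A correlation does not show the base of the log. The median of the members was -0.57 here and -0.68 with the matrix. Its column medians ran from -0.0155 to 0.0152, and its normalization and centring are not given in the sources used here.

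Median signals were corrected by normexp (offset 50) and loess within arrays in limma 3.58.1 (R 4.3.3), control and outlier spots left out, and replicate spots averaged. A probe was tested if red was well above background on at least 4 of 8 arrays and each group had 3 values. The brightest tested probe represented a gene. Limma's lmFit and eBayes compared the groups, adjusted by Benjamini-Hochberg over all probes, with a threshold of 0.05. The fit was tested on simulated data. Names came from a RefSeq table (GRCm38.p6), which named 28331 probes. Members and lists were chosen with earlier results of these data known. The rule for named genes took the members, up to 3 of each list with the smallest p, Fgfr1, Cdh1 and the 3 genes most like each member, with cell markers read as whole lists. Rab25, Tgfb1, Smad3, Lum and Mcpt4 fall outside it and were chosen after their values were seen. Precision is limited by the number of arrays. Each of the 21 alternatives replaced 1 setting, and the Agilent log ratio, the series matrix and red processed signal alone replace background correction and normalization together. The replicate numbers shared by the groups were not used to pair the samples, and the labels do not say what a number marks. Arrays with the same number correlated at -0.11 to 0.11 in their deviations, and arrays with different numbers at -0.13 to 0.083. This cannot exclude a pairing. The bright part was set from control spots alone.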

Additional observations from a re-analysis of the deposited data

Results flagged for a closer look

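In 1 of 16 groups of 4 arrays over the 8 tested member probes, a single array lay far from the other 3: the Cdh2 probe A_55_P2000133 stood at -0.61 on FGFR1 KO 1, while the other FGFR1 KO arrays lay at -0.86 to -0.87. The gap took up 0.94 of the range of the group. Chance gives such a gap in about 1 in 20 groups.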

How the results depend on the processing

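The member median stayed between -0.76 and -0.36 over 21 alternatives, and no member or listed gene passed the threshold in any. The 4 probes past it became 0 with the Agilent log ratio, red alone, median centring, quantile normalization, signal above background on all 8 arrays, trend and robust fitting, the bright part left out, WT 1 and WT 2 left out, WT 1 and WT 3 left out (chosen after seeing the data) and the replicate block. They became 11 with array weights, 139 with no filter on dim probes and 0 to 1 with an array left out. Member probes below 0 were 5 of 5 with the filter of all 8 arrays and 13 of 14 with none. Of all genes, 51.7% and 52.6% were below 0 under these filters. Whether the numbers pair the samples is not known, and the replicate block left 4 in place of 5 member probes lower at an unadjusted p under 0.05. That count was 1 without WT 1 and WT 2, 2 with the Agilent log ratio, 3 with red alone and 3 to 5 with an array left out. Over all probes, 1931 were lower at that p in the main setting and 2082 with the replicate block. The count was 1973 without WT 1 and WT 2, 851 with the Agilent log ratio, 775 with red alone and 1399 to 2342 with an array left out. The Agilent log ratio and red alone moved the median of all probes from 0.02 to 0.12 and 0.14, and genes below 0 from 50.4% to 39.2% and 39.4%.

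The filament list's median was 0.04 and that of the other cadherins -0.06 without WT 1 and WT 2. These results changed sign, and the cause was not tested: the Cdh2 probe A_55_P2029711, 0.032 with the Agilent log ratio and -0.15 to 0.019 with an array left out; Snai2, 0.023 with quantile normalization and -0.37 to 0.37 with an array left out; Zeb1 at 0.027, Des at 0.18 and Cdh1 at -0.077 without WT 1 and WT 2; Fbxo11, 0.18 with red alone. Fgfr1 was 0.00023 with the series matrix, 0.069 with red alone, 0.065 with median centring, 0.078 with quantile normalization, 0.021 without WT 1 and WT 3, and -0.047 to 0.038 with an array left out. Twist1, Twist2 and Cdh11 are limited by signal over background.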
